A study of Mus musculus with 9 samples.

Results

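The breakdown of the branched-chain amino acids leucine, isoleucine and valine was followed through 10 genes in epididymal adipose tissue of mice before and during diet-induced weight loss. The genes were chosen by name for their place in the pathway, with earlier results of these data known. They are Bcat2, Bckdha, Bckdhb, Dbt, Bckdk, Ppm1k, Acadsb, Acad8, Ivd and Mccc1, which make 10 of the 56748 genes in the deposited table. All 10 were among the 18510 genes tested. RNA was sequenced from male wild-type (WT) C57BL/6J mice that were 8 weeks old when a high-fat diet (HFD) began. The 3 Pre libraries came from mice after 8 weeks on HFD. The 3 WL1 libraries and the 3 WL2 libraries came from mice that had the same 8 weeks of HFD and then a standard diet (SD) for 1 or 2 weeks. All 9 libraries therefore share sex, strain, genotype and the HFD period, and no library of mice kept on HFD for as long as WL1 or WL2 was analysed here, so that the change of diet and the added time cannot be told apart. The labels do not say whether each library came from a separate mouse, so p-values measure the spread between these libraries only.

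Branched-chain amino acids are used by adipocytes as fuel and as a source of carbon for lipid. A transaminase first turns them into branched-chain keto acids in mitochondria, and the branched-chain keto acid dehydrogenase complex then commits them to oxidation. A kinase switches that complex off by phosphorylation and a phosphatase switches it on again. After the complex the 3 amino acids part ways, each with its own acyl-CoA dehydrogenase, and leucine carbon passes a biotin-dependent carboxylase on its way to ketone bodies and acetyl-CoA. Lower expression of this pathway in white fat is a known feature of obesity in mice and humans, where circulating branched-chain amino acids are often raised.

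Library totals were 16434450 to 22729072 counts, and the 10 genes had 176 to 4407 counts in a library. Adipocyte genes were abundant in every library, and epididymis genes reached at most 0.461 CPM (counts scaled to the library size) in sum. Pre 2 stood apart in 5 lymphocyte genes, which summed to 153 CPM against 2.42 to 13.8 CPM in the other 8 libraries. WL2 1 stood apart from the other WL2 libraries in 10 macrophage genes, at 3883 CPM against 1753 and 1884 CPM. Hepatocyte genes led by Alb summed to 51.3 to 86.6 CPM in Pre 2, Pre 3 and WL1 1 and to 2.94 to 9.05 CPM in the others. Skeletal muscle genes (6) summed to 30.1 to 46.9 CPM at Pre, 7.62 to 14.7 CPM at WL1 and 8.92 to 26.6 CPM at WL2. Of 4 muscle genes tested, 1 was lower at WL1 (beside 4.69% of all genes) and 3 were above 0. Brown fat genes (4) summed to 6.69 to 8.32, 3.37 to 5.79 and 2.61 to 3.83 CPM. Of 3 brown fat genes tested, 2 were lower at WL2 against Pre (beside 6.66%). The part of these transcripts in the results was not tested. Mesothelial genes (5, among them Msln and Upk3b) summed to 33.6 CPM in Pre 1 against 339 and 299 CPM in Pre 2 and Pre 3. Results without Pre 2 and WL2 1 are given beside the counts of the 10 genes and of the further pathway genes.

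The levels of the 10 genes can be compared with each other only per length, as RPKM, that is, TMM-scaled CPM per kilobase of the gene length in the authors' table. Coordinates of genes are given as in the same table, which names no build and does not match GRCm38. Averaged over 9 libraries, Bckdhb had a level of 43.6 (28.2 to 56.6 over libraries), followed by Bcat2 at 37.6 (26.3 to 48.3), Ivd at 33.0 (18.3 to 45.6), Bckdha at 25.5 (18.3 to 31.2), Dbt at 22.2 (13.6 to 29.0), Acadsb at 22.1 (15.3 to 28.1) and Bckdk at 16.8 (13.5 to 20.8). Acad8 at 9.56 (8.25 to 11.0), Mccc1 at 7.10 (5.30 to 9.20) and Ppm1k at 2.24 (1.71 to 3.19) were the least abundant. Neighbours in this order had overlapping ranges, except Bckdk above Acad8 and Mccc1 above Ppm1k. The phosphatase gene was thus the least abundant member, at the end of the order in every library.

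Of the 10 genes, 4 passed the test in at least 1 comparison of phases, namely Ivd, Mccc1, Bcat2 and Ppm1k, and their promoters are shown because these genes carry the differences described in the following paragraphs. The windows hold 250 bases before and 50 bases after the annotated start, from RefSeq on build GRCm38.p6, and such windows were found for 9 of the 10 genes (11 windows in all, since Bcat2 and Bckdhb had 2 each). Dbt had none. Capitals mark a CCAAT box (CCAAT, or ATTGG on the other strand) or a GC box (GGGCGG, or CCGCCC on the other strand). The windows lie at chr2:118861744-118862043 on the plus strand, chr3:36000629-36000928 on the minus strand, chr7:45569903-45570202 on the plus strand (the first of 2 for Bcat2) and chr6:57535438-57535737 on the minus strand.
Ivd: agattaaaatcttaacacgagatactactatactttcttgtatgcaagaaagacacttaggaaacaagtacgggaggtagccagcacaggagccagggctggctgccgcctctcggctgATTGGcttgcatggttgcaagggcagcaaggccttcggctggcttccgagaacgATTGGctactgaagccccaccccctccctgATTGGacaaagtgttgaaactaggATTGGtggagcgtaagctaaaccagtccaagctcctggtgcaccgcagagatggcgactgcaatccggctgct
Mccc1: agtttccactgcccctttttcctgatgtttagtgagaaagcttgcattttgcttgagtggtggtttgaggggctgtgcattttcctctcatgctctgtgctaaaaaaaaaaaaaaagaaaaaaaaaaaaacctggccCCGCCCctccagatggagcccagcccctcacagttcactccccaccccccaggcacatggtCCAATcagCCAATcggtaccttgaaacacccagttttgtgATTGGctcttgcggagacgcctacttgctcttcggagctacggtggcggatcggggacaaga
Bcat2: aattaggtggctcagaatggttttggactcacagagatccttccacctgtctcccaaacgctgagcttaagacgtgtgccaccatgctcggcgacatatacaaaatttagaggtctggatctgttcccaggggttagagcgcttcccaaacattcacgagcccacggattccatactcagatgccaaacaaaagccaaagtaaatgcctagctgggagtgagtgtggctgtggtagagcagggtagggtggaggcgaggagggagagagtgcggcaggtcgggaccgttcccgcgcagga
Ppm1k: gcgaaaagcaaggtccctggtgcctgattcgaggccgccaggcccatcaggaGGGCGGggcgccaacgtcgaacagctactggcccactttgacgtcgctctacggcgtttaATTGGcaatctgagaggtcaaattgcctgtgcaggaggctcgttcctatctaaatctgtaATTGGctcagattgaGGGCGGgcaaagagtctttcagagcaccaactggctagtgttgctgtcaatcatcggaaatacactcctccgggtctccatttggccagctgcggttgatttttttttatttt
The window of Ivd held 4 CCAAT boxes, a number reached by 1.06% of all 32851 promoter windows of the same length. The window of Mccc1 held 3, a number reached by 3.37% of all windows, and also 1 GC box. Ppm1k had 2 CCAAT boxes and 2 GC boxes, and the Bcat2 window had neither. Over all members, 7 of 11 windows held a CCAAT box, against 37.4% of all windows, and 5 of 11 held a GC box, against 35.7%. The letters TCAAGGTCA, bound by estrogen-related receptors, and CACGTG, the E-box bound by carbohydrate response factors among others, occurred in 0.423% and 7.15% of all windows and in 0 of the 11 member windows. Both strands were searched, and no motif contains another. Such matches describe the sequence and do not show binding.

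At WL1 against Pre, 3 of the 10 genes were lower (quasi-likelihood test of edgeR, p-values adjusted after Benjamini and Hochberg over all 18510 genes), beside 4.69% of all genes tested, and 0 of 10 were higher, beside 2.60%. Among the 9944 genes with a mean of at least 10 CPM, as all 10 genes had, 7.08% were lower and 3.80% higher. The 3 were Ivd, Mccc1 and Bcat2. A further 3 genes, Bckdk, Acadsb and Bckdha, had an unadjusted p under 0.05 but missed the threshold after adjustment, so that 6 of 10 genes reached an unadjusted p under 0.05 beside 24.3% of all genes. The median log2 fold change of the 10 genes was -0.37, beside 0.02 over all genes tested. The WL1 libraries lay below every Pre library for 5 of the 10 genes, beside 13.9% of all genes. Scaled to 10 adipocyte marker genes instead of the total RNA, which moved the median of all genes to 0.64, the median of the 10 genes was 0.26. On that scaling 0 of 10 genes were lower, beside 1.23% of all genes, and 2 of 10, Dbt and Ppm1k, were higher, beside 41.4%, a share below that of all genes. Every WL1 library lay above every Pre library on that scaling for 3 genes (Dbt, Ppm1k and Acad8), beside 50.9%, and below for 0, beside 1.69%. The 3 lower calls rested on few libraries, as given for each gene, and with Pre 2 and WL2 1 both left out 2 of them, Ivd and Mccc1, passed, beside 4.61% of all genes lower in that fit.

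At WL2 against Pre, 1 of 10 genes was higher, beside 3.35% of all genes tested, and 0 of 10 were lower, beside 6.66%. Among genes with at least 10 CPM the shares were 4.33% higher and 9.43% lower. The gene was Ppm1k, and it was the only member with an unadjusted p under 0.05 in this comparison, beside 26.0% of all genes. The median log2 fold change of the 10 genes was 0.14, beside 0.01 over all genes. The libraries did not overlap, with WL2 higher, for 2 of 10 genes, Dbt and Ppm1k, beside 15.1% of all genes. With Pre 2 and WL2 1 left out, 0 of 10 genes passed, beside 7.68% of all genes in either direction. With the adipocyte scaling 0 of 10 passed, beside 4.09%. On that scaling every WL2 library lay above every Pre library for 5 genes, beside 15.5% of all genes. These were Bcat2, Dbt, Ppm1k, Acad8 and Ivd. Every WL2 library lay below every Pre library for 0 of the 10, beside 9.61%.

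At WL2 against WL1, 3 of 10 genes were higher, beside 1.31% of all genes tested, and 0 of 10 were lower, beside 2.37% (1.78% higher and 3.26% lower among genes with at least 10 CPM). These were again Ivd, Mccc1 and Bcat2. The comparison shares its WL1 libraries with that of WL1 against Pre, so the values of the genes in both are given side by side and not as independent results. All 10 genes had a log2 fold change above 0, beside 49.7% of all genes, and 9 of 10 had an unadjusted p under 0.05, beside 21.4%. For all 10 genes, every WL2 library lay above every WL1 library, beside 13.9% of all genes. The median log2 fold change was 0.48, beside -0.00 over all genes. On the adipocyte scaling it was -0.06 where the median of all genes was -0.56, with 0 of 10 genes called, beside 0.416% of all genes higher and 30.5% lower. On that scaling every WL2 library lay above every WL1 library for 1 gene, Ivd, beside 1.66% of all genes, and below for 2, beside 53.7%. With Pre 2 and WL2 1 left out, 5 of 10 genes were higher (Bcat2, Bckdhb, Acadsb, Ivd and Mccc1), beside 2.94% of all genes, where 10.3% of all genes passed in either direction. A test among the 3 phases called 4 of 10 genes (Bcat2, Ppm1k, Ivd and Mccc1), beside 13.1% of all genes.

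Several lists of cell type markers also had values that differed between WL1 and WL2, with few or no calls. The 5 endothelial genes had a median log2 fold change of 0.05, with 0 at an unadjusted p under 0.05. The 5 mesothelial genes had log2 fold changes above 0 with a median of 1.89, and all 5 had an unadjusted p under 0.05 while 0 passed after adjustment in edgeR's test. They summed to 41.0 to 196 CPM at WL1 and 214 to 604 CPM at WL2, with 0 of 5 genes at 0 counts in any library. Of the 10 macrophage genes, 9 were below 0 with a median of -1.07, and 0 passed, with 9 at an unadjusted p under 0.05. Of the 10 adipocyte genes, 9 were above 0 with a median of 0.44, and 2 passed higher (beside 1.31% of all genes) and 1 lower (beside 2.37%). The 5 hepatocyte genes were below 0 with a median of -3.88, 4 at an unadjusted p under 0.05 and 0 passing. Their sum was 75.8 CPM in WL1 1 and at most 9.05 CPM in the other WL1 and the WL2 libraries. Of 6 fibroblast genes, 4 were above 0, 3 had an unadjusted p under 0.05 and 1 passed higher. Over all genes, 21.4% had an unadjusted p under 0.05. At WL1 against Pre the mesothelial median was -0.98, with 0 of 5 genes at an unadjusted p under 0.05. The part of these cell types in the values of the 10 genes was not tested.

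**Figure D1:**
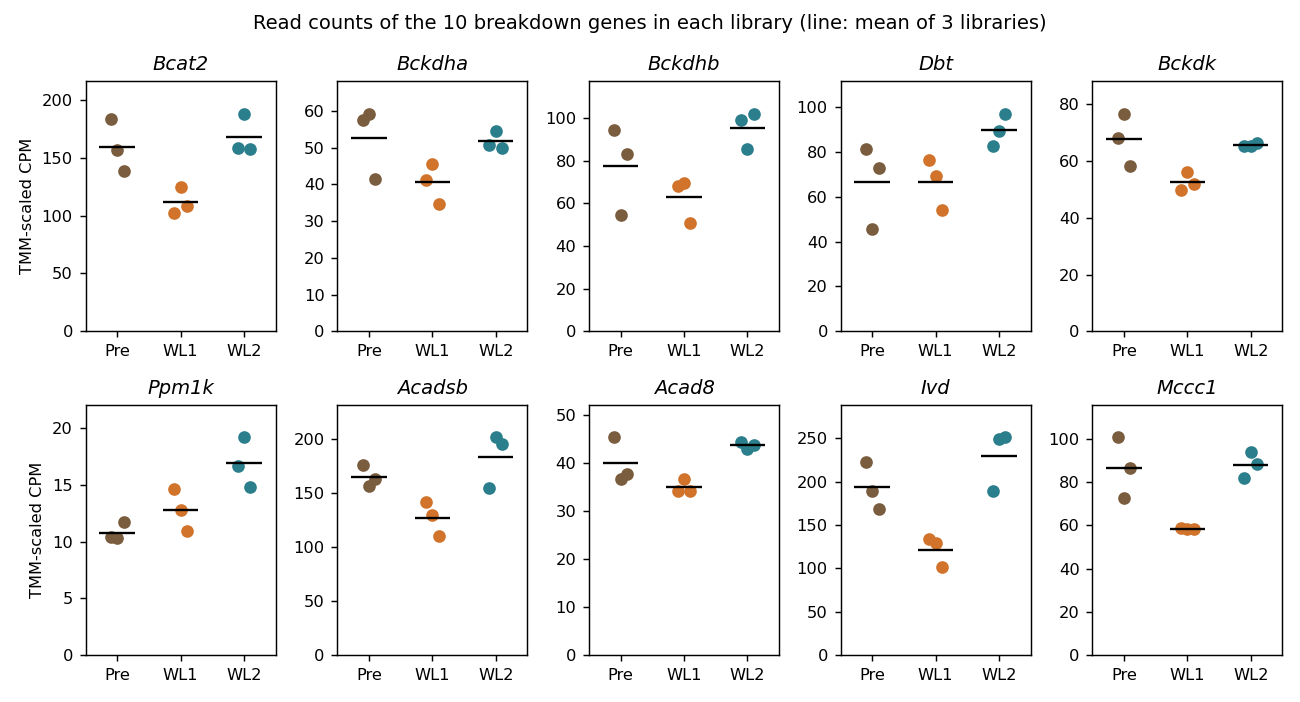
TMM-scaled CPM of the 10 breakdown genes in each library (vertical axes, from 0), by phase (Pre, WL1, WL2, 3 libraries each), with the mean as a line. In every panel all WL2 points lie above all WL1 points, beside 13.9% of all genes. On the adipocyte scaling, which shifted all genes by a median of -0.56, this held for 1 gene, Ivd, beside 1.66%. Only for Ppm1k and Dbt do the WL2 points also clear all Pre points, beside 15.1% of all genes. On the adipocyte scaling WL2 cleared Pre for 5 genes, beside 15.5%.

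Bcat2 (ENSMUSG00000030826) encodes the mitochondrial transaminase that takes the amino group from all 3 amino acids, and is the main form in fat. It had 183, 157 and 139 CPM at Pre, 103, 125 and 108 CPM at WL1 and 159, 188 and 157 CPM at WL2. All WL1 libraries were below all others, and Pre and WL2 overlapped. Bcat2 fell by 0.51 on the log2 scale at WL1 (SE 0.13, adjusted p = 0.0463) and rose by 0.59 from WL1 to WL2 (SE 0.13, adjusted p = 0.0428). The difference of WL2 from Pre was 0.07 (SE 0.13, adjusted p = 0.761), with a 95% interval from -0.22 to 0.37. Both calls were close to the threshold. That at WL1 held without Pre 3 and was lost without any 1 of the other 8 libraries, at log2 values of -0.60 to -0.40. That at WL2 was lost without any 1 of the WL1 libraries, WL2 2 or WL2 3, at 0.50 to 0.67. The Bcat2 locus on chromosome 7 (45219577 to 45239135, plus strand) overlaps the antisense noncoding gene 0610005C13Rik, and the counts cannot be assigned by strand with the sources used here.

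The cytosolic transaminase Bcat1, which does the same reaction outside mitochondria and is typical of brain and immune cells, had a lower level. It had 14.2, 12.4 and 16.2 CPM at Pre, 7.98, 8.59 and 13.1 CPM at WL1 and 9.14, 7.76 and 8.69 CPM at WL2. Bcat1 was below Pre in every WL2 library and fell by 0.74 on the log2 scale (SE 0.20, adjusted p = 0.0446), a call lost without Pre 1, Pre 3, WL1 2 or any 1 of the WL2 libraries (-0.83 to -0.64). Per length, the ratio of Bcat2 to Bcat1 was 20.6 to 31.0 in the Pre libraries and 19.7 to 34.8 in the WL1 libraries. It was 41.6 to 58.0 in the WL2 libraries. The WL2 ratios thus lay above all others, as a description without a test.

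Bckdha (ENSMUSG00000060376, chromosome 7, 25329371 to 25358406) and Bckdhb (ENSMUSG00000032263, chromosome 9, 83807198 to 84006293) encode the alpha and beta subunits of the decarboxylase (E1) of the keto acid dehydrogenase complex. Dbt (ENSMUSG00000000340, chromosome 3, 116306719 to 116343630) encodes its transacylase core (E2). Bckdha had 57.7, 59.3 and 41.4 CPM at Pre, 41.3, 45.7 and 34.8 CPM at WL1 and 50.9, 54.6 and 49.9 CPM at WL2. Bckdhb had 94.4, 54.6 and 83.4 CPM at Pre, 68.2, 69.7 and 50.9 CPM at WL1 and 99.3, 85.4 and 102 CPM at WL2. Dbt had 81.5, 45.6 and 73.0 CPM at Pre, 76.4, 69.6 and 54.3 CPM at WL1 and 82.9, 89.6 and 97.2 CPM at WL2. No comparison passed the adjusted threshold for any of the 3 subunits. Every WL2 library lay above every WL1 library in each of the 3, an order found in 13.9% of all genes. On the adipocyte scaling Ivd was the only member with this order, beside 1.66% of all genes, so that none of the 3 subunits kept it. The log2 differences of WL2 from WL1 were 0.35 (95% interval 0.01 to 0.69) for Bckdha, 0.60 (0.17 to 1.04) for Bckdhb and 0.43 (-0.02 to 0.88) for Dbt.

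The subunits did not share their spread among the Pre libraries. Pre 2, the library rich in lymphocyte genes, held the lowest Pre value of Bckdhb and of Dbt and the highest Pre value of Bckdha. The ratio of Bckdhb to Bckdha per length was therefore 0.969 to 2.12 over the Pre libraries, against 1.54 to 1.74 at WL1 and 1.65 to 2.15 at WL2. Dbt at WL1 was at 0.00 from Pre on the log2 scale (95% interval -0.45 to 0.45), and at -0.21 without Pre 2. Bckdhb at WL1 was at -0.30 (95% interval -0.73 to 0.13), and at -0.50 without Pre 2. Whether the lymphocyte transcripts of Pre 2 have a part in its Bckdhb and Dbt values was not tested. Bckdha overlaps the gene B3gnt8 on the opposite strand.

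Bckdk (ENSMUSG00000030802, chromosome 7, 127503254 to 127509393) encodes the kinase that inactivates the complex by phosphorylating its E1 alpha subunit. It had 68.2, 76.8 and 58.2 CPM at Pre, 49.9, 56.2 and 52.1 CPM at WL1 and 65.3, 65.2 and 66.5 CPM at WL2. WL1 was below both other phases in all libraries. The log2 difference at WL1 was -0.36 (95% interval -0.61 to -0.11, adjusted p = 0.0870), that of WL2 from WL1 was 0.32 (0.06 to 0.57, adjusted p = 0.144) and that of WL2 from Pre was -0.04 (-0.30 to 0.21), so that no comparison of the kinase passed.

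Ppm1k (ENSMUSG00000037826, chromosome 6, 57483487 to 57512453) encodes the mitochondrial phosphatase that removes the same phosphate and activates the complex. It had 10.4, 10.3 and 11.7 CPM at Pre, 14.6, 12.8 and 11.0 CPM at WL1 and 16.7, 19.2 and 14.8 CPM at WL2. All WL2 libraries lay above all libraries of the other phases, while WL1 and Pre overlapped. Ppm1k rose by 0.65 on the log2 scale at WL2 against Pre (SE 0.15, 95% interval 0.30 to 0.99, adjusted p = 0.0258), which is a rise of 56.4%. The difference was 0.24 at WL1 against Pre (SE 0.15, adjusted p = 0.365) and 0.40 at WL2 against WL1 (SE 0.15, adjusted p = 0.159). The call was lost without Pre 1, Pre 2, WL2 1 or WL2 2, at log2 values of 0.54 to 0.73 over all 9 omissions. Its 176 to 339 counts per library were the fewest of the 10 genes.

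The ratio of kinase to phosphatase transcripts per length was 10.7, 12.1 and 8.10 at Pre, 5.57, 7.18 and 7.74 at WL1 and 6.37, 5.53 and 7.31 at WL2. Its mean was 10.3 ± 2.05 (SD, n = 3) at Pre, 6.83 ± 1.12 at WL1 and 6.41 ± 0.891 at WL2. Every library after the change of diet lay below every Pre library, and WL1 and WL2 overlapped. The ratio does not depend on the scaling between libraries, because both genes are read in the same library. It is given as a description, since the pair was formed with the values of both genes known. It concerns transcripts and not the activity or phosphorylation of the complex.

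**Figure D2:**
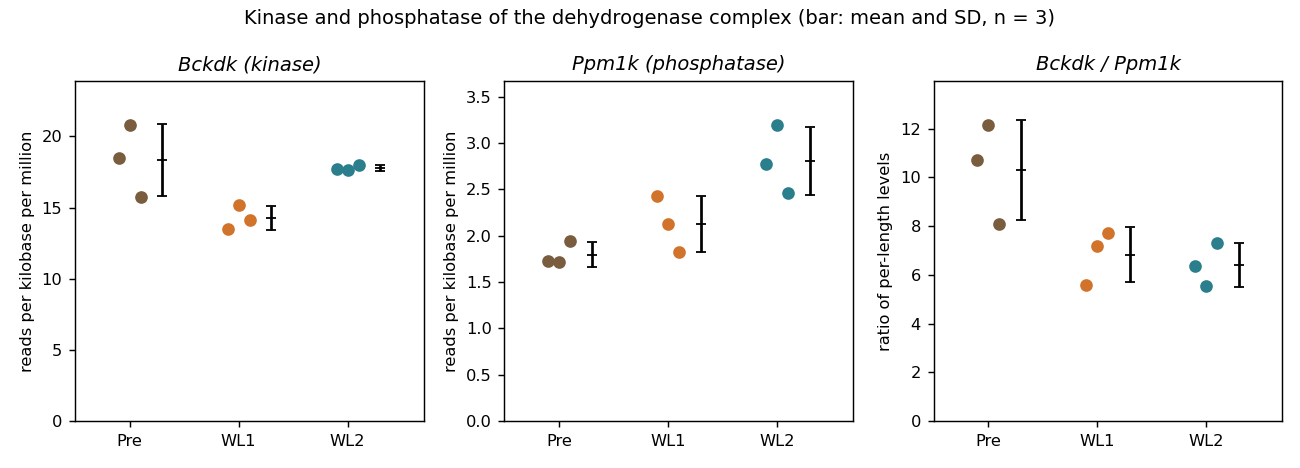
RPKM (TMM-scaled CPM per kilobase) of Bckdk (left) and Ppm1k (middle) and their ratio (right) in each library by phase, with mean and SD of 3 libraries beside the points and axes from 0. The ratio is 8.10 to 12.1 in the Pre libraries and 5.53 to 7.74 in the WL1 and WL2 libraries.

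The acyl-CoA dehydrogenases act after the complex, with Ivd on the leucine branch, Acadsb on the isoleucine branch and Acad8 on the valine branch. Ivd (ENSMUSG00000027332), isovaleryl-CoA dehydrogenase, had 223, 189 and 168 CPM at Pre, 134, 129 and 101 CPM at WL1 and 190, 250 and 251 CPM at WL2. All WL1 libraries lay below all others. Ivd fell by 0.67 on the log2 scale at WL1 (SE 0.16, adjusted p = 0.0334), where the fitted level decreased by 37.3%, and rose by 0.92 from WL1 to WL2 (SE 0.16, adjusted p = 0.0187), which was the largest fitted change among the 10 genes in the 3 comparisons. At WL2 the log2 difference from Pre was 0.25 (95% interval -0.10 to 0.60, adjusted p = 0.347). The call at WL1 held without Pre 3, WL2 1 or WL2 3 and was lost without any 1 of the other 6 libraries (-0.76 to -0.56), and that at WL2 against WL1 was lost without WL1 2, WL1 3, WL2 2 or WL2 3 (0.83 to 1.05). Ivd, with its 4 CCAAT boxes, lies on chromosome 2 (118692435 to 118713390, plus strand) and overlaps no other gene there.

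Acadsb (ENSMUSG00000030861, chromosome 7, 131012330 to 131050673), the short/branched-chain dehydrogenase, had 177, 156 and 163 CPM at Pre, 142, 129 and 110 CPM at WL1 and 155, 202 and 195 CPM at WL2. WL1 was below both other phases without overlap, but the log2 differences of -0.38 at WL1 against Pre (95% interval -0.68 to -0.08, adjusted p = 0.119) and 0.53 at WL2 against WL1 (0.24 to 0.83, adjusted p = 0.0567) did not pass. Acad8 (ENSMUSG00000031969, chromosome 9, 26885431 to 26910862), isobutyryl-CoA dehydrogenase, had 45.4, 36.7 and 37.8 CPM at Pre, 34.3, 36.7 and 34.2 CPM at WL1 and 44.4, 42.9 and 43.9 CPM at WL2. Its log2 differences were -0.19 (95% interval -0.43 to 0.05) at WL1 against Pre and 0.32 (0.08 to 0.56) at WL2 against WL1, and neither passed. The intervals of the valine and isoleucine enzymes at WL1 overlap that of Ivd (-1.03 to -0.32), and the difference between branches was not tested. Acadsb overlaps Fgfr2 on the opposite strand.

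Mccc1 (ENSMUSG00000027709, chromosome 3, 36013461 to 36054827) encodes the biotin-carrying alpha subunit of methylcrotonyl-CoA carboxylase, the leucine step after Ivd. It had 101, 72.7 and 86.5 CPM at Pre, 58.8, 58.3 and 58.1 CPM at WL1 and 82.0, 94.0 and 88.4 CPM at WL2. The WL1 libraries were nearly equal and below all others. Mccc1 fell by 0.57 on the log2 scale at WL1 (SE 0.12, adjusted p = 0.0239) and rose by 0.59 from WL1 to WL2 (SE 0.12, adjusted p = 0.0329), and WL2 was at 0.03 from Pre (95% interval -0.25 to 0.30). The call at WL1 was lost without Pre 1 or any 1 of the WL1 libraries (-0.68 to -0.45), and that at WL2 against WL1 without any 1 of the WL1 libraries, WL2 2 or WL2 3 (0.55 to 0.64). The partner subunit Mccc2, which was not among the 10 genes, had 81.8, 72.1 and 71.2 CPM at Pre, 47.4, 51.0 and 37.7 CPM at WL1 and 72.3, 77.9 and 70.5 CPM at WL2. Mccc2 fell by 0.73 at WL1 (SE 0.13, adjusted p = 0.00966), a call that held whichever 1 library was left out, and rose by 0.70 from WL1 to WL2 (SE 0.13, adjusted p = 0.0203), a call lost without WL1 1, WL1 3, WL2 2 or WL2 3 (0.60 to 0.79). Mccc1 overlaps the antisense noncoding gene Mccc1os.

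**Figure D3:**
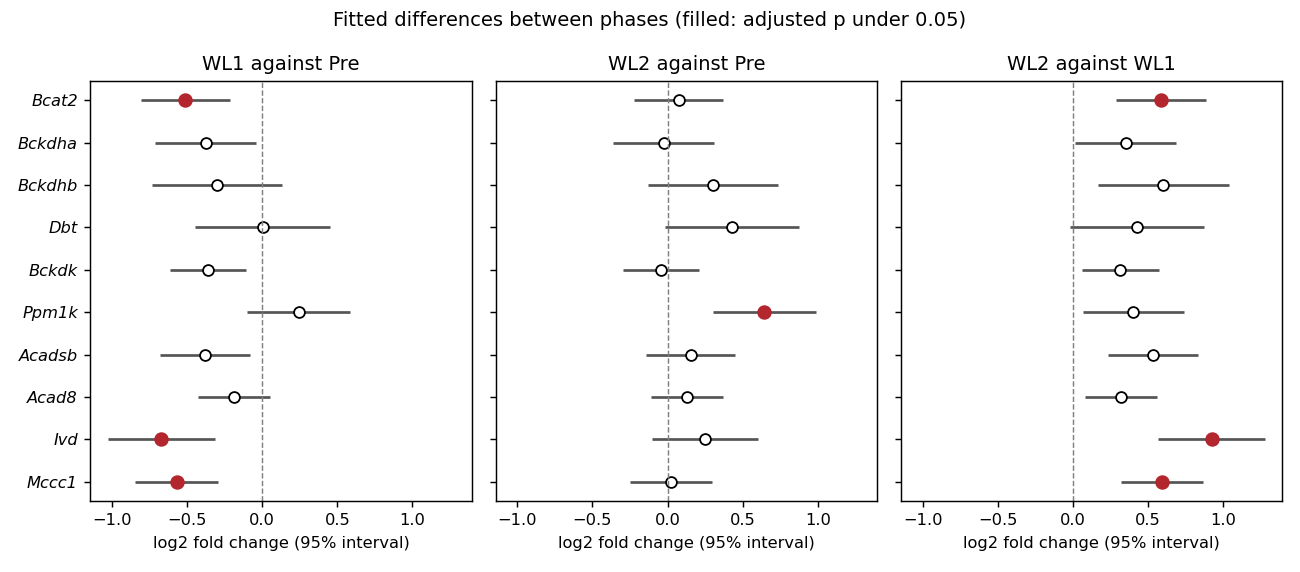
Log2 fold change with its 95% interval (horizontal axis) of each of the 10 genes in the 3 comparisons, from the edgeR fit over 9 libraries, where filled points passed an adjusted p of 0.05. At WL1 the 3 filled points (Bcat2, Ivd, Mccc1) are at -0.67 to -0.51, beside 4.69% of all genes lower. Relative to adipocyte markers they were at 0.11, -0.05 and 0.06, below the median of 0.64 by which all genes shifted. At WL2 against Pre the filled point is Ppm1k, beside 3.35% of all genes higher. At WL2 against WL1 all 10 points lie above 0, beside 49.7% of all genes, and 3 are filled, beside 1.31% higher. The median of the 10 genes was 0.48 there. On the adipocyte scaling it was -0.06, beside -0.56 for all genes.

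The rest of the pathway was read from 26 further genes for transport, shared steps, the late steps of each branch, propionyl-CoA and electron transfer. At WL1 against Pre, 7 of the 26 were lower (beside 4.69% of all genes) and 2 were higher (beside 2.60%). At WL2 against Pre, 2 were lower (beside 6.66%) and 2 higher (beside 3.35%). At WL2 against WL1, 6 were higher (beside 1.31%) and 2 lower (beside 2.37%). Their median log2 fold change was -0.35, -0.03 and 0.32 in the 3 comparisons, beside medians of 0.02, 0.01 and -0.00 over all genes, and on the adipocyte scaling the median at WL1 was 0.26 beside 0.64 for all genes, with 7 higher (beside 41.4% of all genes) and 0 lower (beside 1.23%). On that scaling the median at WL2 against WL1 was -0.23 beside -0.56 for all genes. There 1 gene, Aldh6a1, was higher (beside 0.416%), and 4, Slc7a5, Slc3a2, Slc7a8 and Slc43a2, were lower (beside 30.5%). At WL2 against Pre 2 were higher (beside 1.59%) and 0 lower (beside 2.5%). With Pre 2 and WL2 1 left out, 9 of the 26 were lower (beside 4.61%) and 2 higher (beside 3.68%) at WL1 against Pre. In that fit 1 was lower (beside 5.54%) and 2 higher (beside 2.13%) at WL2 against Pre, and 7 were higher (beside 2.94%) and 2 lower (beside 7.36%) at WL2 against WL1.

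The 7 lower genes at WL1 were all enzymes of the late steps. On the leucine branch these were Mccc2 and Auh, the hydratase that follows the carboxylase, which fell by 0.52 (SE 0.11, adjusted p = 0.0231). On the valine and isoleucine branches Echs1, short-chain enoyl-CoA hydratase, fell by 0.64 (adjusted p = 0.0130), Hibadh, 3-hydroxyisobutyrate dehydrogenase, fell by 0.65 (adjusted p = 0.0120) and Hsd17b10, which oxidises the isoleucine intermediate, fell by 0.51 (adjusted p = 0.0244). Pcca and Pccb, the subunits of propionyl-CoA carboxylase, were at -0.56 and -0.65 (adjusted p = 0.0254 and 0.0193). The call for Hibadh, like that for Mccc2, held whichever 1 library was left out, and that for Echs1 was lost without WL1 1 or WL1 3 (-0.71 to -0.54). Those for Auh, Pcca and Pccb were lost without Pre 1 or any 1 of the WL1 libraries (-0.74 to -0.45), and that for Hsd17b10 without Pre 1, Pre 2, WL1 1 or WL1 3 (-0.62 to -0.46). Echs1 and Pcca overlap Paox and Ggact on the opposite strand.

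Aldh6a1, methylmalonate-semialdehyde dehydrogenase of the valine branch, passed at WL2 against each of the other phases. It had 344, 310 and 281 CPM at Pre, 256, 242 and 189 CPM at WL1 and 402, 513 and 509 CPM at WL2, with no overlap between any phases. Aldh6a1 rose by 0.61 on the log2 scale at WL2 against Pre (SE 0.15, adjusted p = 0.0296) and by 1.05 against WL1 (SE 0.15, adjusted p = 0.00862), and its difference at WL1 against Pre was -0.45 (adjusted p = 0.0998). The first call was lost without Pre 2, Pre 3, WL2 2 or WL2 3 (0.54 to 0.71) and the other without WL2 2 (0.95 to 1.16). The other late enzymes higher at WL2 than at WL1 were Mccc2, Echs1 (0.61), Hibadh (0.62) and Pccb (0.61), and the calls of these 4 were lost without WL1 1, WL1 3, WL2 2 or WL2 3, those of Echs1 and Pccb also without WL1 2 (0.55 to 0.79 over the 4 genes). Aldh6a1 overlaps Bbof1 on the opposite strand.

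Transporters bring the amino acids across the plasma membrane and into mitochondria. Slc43a1, a transporter of large neutral amino acids including leucine (LAT3), had 19.4, 15.6 and 17.4 CPM at Pre, 42.7, 43.8 and 30.9 CPM at WL1 and 66.7, 69.8 and 55.0 CPM at WL2. The 3 phases did not overlap, and Slc43a1 rose by 1.16 on the log2 scale at WL1 (SE 0.16, adjusted p = 0.00299) and by 1.87 at WL2 against Pre (SE 0.16, adjusted p = 9.35e-05), and both calls held whichever 1 library was left out. Its rise of 0.71 from WL1 to WL2 (adjusted p = 0.0382) held only without Pre 1 or Pre 2 and was lost without any 1 of the other 7 libraries (0.58 to 0.80). Slc7a5, the light chain of the exchanger LAT1, had 12.0, 18.9 and 12.5 CPM at Pre, 11.3, 10.1 and 17.3 CPM at WL1 and 6.30, 4.99 and 6.25 CPM at WL2. It fell by 1.31 at WL2 against Pre (SE 0.25, adjusted p = 0.00920), a call lost without WL2 2 (-1.42 to -1.07), and by 1.14 against WL1 (SE 0.25, adjusted p = 0.0370), a call lost without Pre 3, any 1 of the WL1 libraries, WL2 2 or WL2 3 (-1.29 to -0.85).

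Slc43a2 (LAT4), a related leucine transporter, had 44.9, 69.0 and 57.8 CPM at Pre, 78.4, 70.2 and 99.7 CPM at WL1 and 48.0, 40.9 and 45.2 CPM at WL2, and Slc43a2 fell by 0.89 from WL1 to WL2 (SE 0.17, adjusted p = 0.0270), a call lost without WL1 1, WL1 3, WL2 2 or WL2 3 (-0.995 to -0.714). Beside these values, the 10 macrophage genes summed to 1671 to 2810 CPM at Pre, 3467 to 6976 CPM at WL1 and 1753 to 3883 CPM at WL2, and their part was not tested. Slc7a8 rose by 0.47 at WL1 (adjusted p = 0.0453), a call lost without any 1 of the 9 libraries (0.36 to 0.53). Slc25a44, the mitochondrial carrier of branched-chain amino acids, passed in no comparison, with 60.1 to 75.7 CPM at Pre, 62.8 to 67.5 CPM at WL1 and 74.9 to 79.0 CPM at WL2. Its log2 difference at WL1 was -0.08 (95% interval -0.31 to 0.16) and at WL2 against Pre 0.16 (-0.07 to 0.40).

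**Figure D4:**
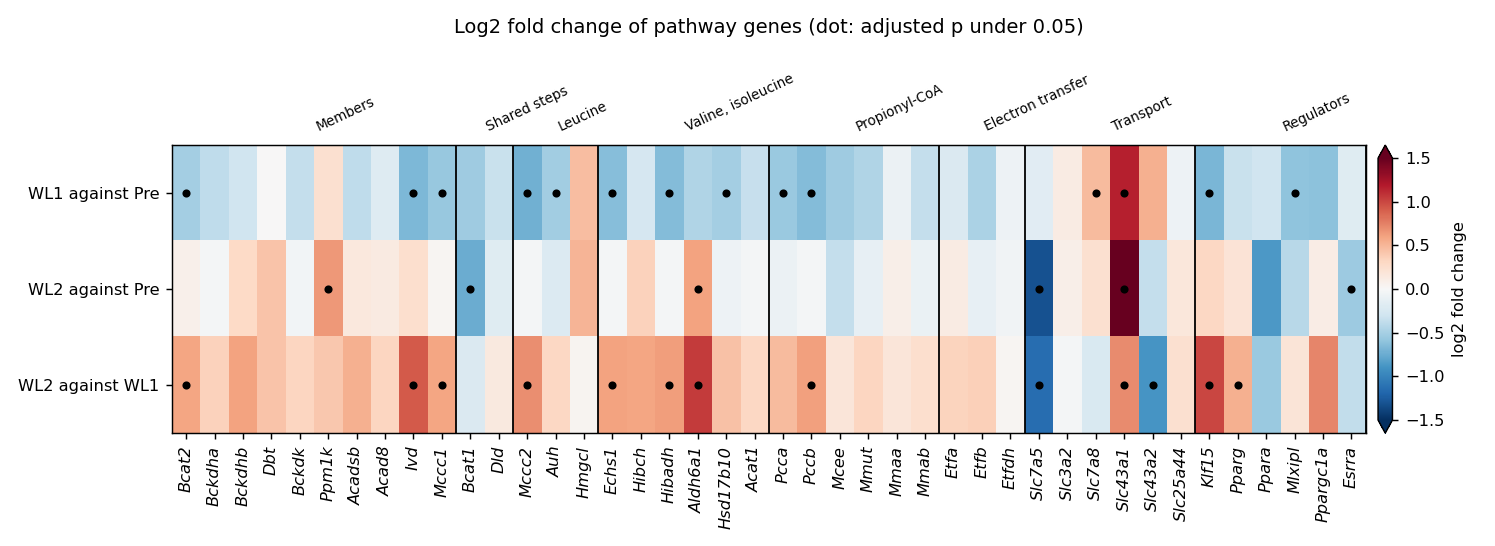
Log2 fold change (colour, red higher and blue lower) of the 10 genes, 26 further pathway genes and 6 regulators (columns, in groups) in the 3 comparisons (rows), with a dot where the adjusted p was under 0.05. The dots at WL1 against Pre mark 3 lower members and 7 lower further genes, beside 4.69% of all genes, and 2 higher further genes, beside 2.60%. On the adipocyte scaling, which moved the median of all genes at WL1 by 0.64, none of these members or further genes was lower, beside 1.23% of all genes. On that scaling 2 members and 7 further genes were higher, beside 41.4% of all genes.

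Among 6 genes for regulators of the pathway, 2 were lower at WL1 against Pre (beside 4.69% of all genes). At WL2 against Pre 1 was lower (beside 6.66%), and at WL2 against WL1 2 were higher (beside 1.31%). Klf15, a glucocorticoid-responsive factor that drives transcription of branched-chain amino acid enzymes in muscle and liver, had 79.7, 60.7 and 53.8 CPM at Pre, 37.8, 38.2 and 44.6 CPM at WL1 and 69.4, 85.1 and 87.0 CPM at WL2. All WL1 libraries lay below all others, as for Bcat2, Bckdk, Acadsb, Ivd and Mccc1. Over all genes, every WL1 library lay below every Pre library for 13.9%, and every WL2 library above every WL1 library for 13.9%. Klf15 fell by 0.69 on the log2 scale at WL1 (SE 0.16, adjusted p = 0.0292), a call lost without Pre 1 or any 1 of the WL1 libraries (-0.80 to -0.51), and rose by 1.00 from WL1 to WL2 (SE 0.16, adjusted p = 0.0124), a call lost without WL1 2, WL2 2 or WL2 3 (0.94 to 1.10). No relation between Klf15 and the enzymes was tested.

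Pparg, the master factor of adipocytes, rose by 0.54 from WL1 to WL2 (SE 0.13, adjusted p = 0.0456), a call lost without Pre 3, any 1 of the WL1 libraries, WL2 2 or WL2 3 (0.45 to 0.60). Mlxipl, the carbohydrate response factor ChREBP, fell by 0.61 at WL1 (SE 0.16, adjusted p = 0.0492) and kept this call only without Pre 2 or WL2 1, while it was lost without any 1 of the other 7 libraries (-0.77 to -0.50). Esrra, estrogen-related receptor alpha, fell by 0.55 at WL2 against Pre (SE 0.13, adjusted p = 0.0274), lost without Pre 1, Pre 2 or any 1 of the WL2 libraries (-0.62 to -0.46), and it overlaps Trmt112 on the opposite strand. Ppara and Ppargc1a, with at most 2.54 and 2.83 CPM in a library, did not pass in any comparison.

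The pyruvate and 2-oxoglutarate dehydrogenase complexes share their architecture with the branched-chain complex and were read beside it in 6 subunit genes. At WL1 against Pre, 3 of 6 were lower, beside 4.69% of all genes. These were Pdhb at -0.63, Dlat at -0.51 and Pdha1 at -0.38 on the log2 scale (adjusted p = 0.00551, 0.0185 and 0.0492). At WL2 against Pre 2 of 6 were lower, beside 6.66% of all genes, with Pdhb and Dlat at -0.40 and -0.51 (adjusted p = 0.0292 and 0.0132). At WL2 against WL1, 0 of 6 passed in edgeR's test (beside 1.31% of all genes higher and 2.37% lower), with 1 at an unadjusted p under 0.05 (beside 21.4%). Dlat, the E2 of the pyruvate complex, had 123 to 144 CPM at Pre, 89.4 to 103 CPM at WL1 and 90.6 to 98.3 CPM at WL2. Dbt had 45.6 to 81.5 CPM at Pre and 82.9 to 97.2 CPM at WL2, a log2 difference of 0.43 that did not pass. For Bckdha and Bckdhb the WL2 and Pre libraries overlapped. The difference between the complexes was not tested. The fall of Pdhb at WL1 held whichever 1 library was left out, that of Dlat was lost without Pre 1, WL1 1 or WL1 3 (-0.58 to -0.46), and that of Pdha1 held only without WL2 1 (-0.43 to -0.35). At WL2, Pdhb lost its call without Pre 1, Pre 3 or any 1 of the WL2 libraries (-0.44 to -0.37) and Dlat without WL2 2 or WL2 3 (-0.58 to -0.47).

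Of 7 kinase, phosphatase and regulatory genes of the pyruvate complex, 3 were higher at WL1 (beside 2.60% of all genes) and 2 at WL2 against Pre (beside 3.35%). Pdk4, the pyruvate dehydrogenase kinase induced by fasting, had 74.7, 64.1 and 103 CPM at Pre, 201, 246 and 332 CPM at WL1 and 261, 149 and 212 CPM at WL2. Pdk4 rose by 1.69 on the log2 scale at WL1 (SE 0.25, adjusted p = 0.00453) and by 1.36 at WL2 against Pre (SE 0.25, adjusted p = 0.00794), and both calls held whichever 1 library was left out. Pdk2 rose by 0.90 at WL2 against Pre (SE 0.14, adjusted p = 0.00354), a call that held as well. The kinase of the branched-chain complex, Bckdk, was at -0.36 and -0.04 in the same comparisons, neither of which passed. Of the phosphatases, Pdp1 rose by 0.48 at WL1 (adjusted p = 0.0363), a call that held only without Pre 3 or WL2 1 and was lost without any 1 of the other 7 libraries (0.42 to 0.56), and was at 0.34 at WL2 against Pre (adjusted p = 0.0946).

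Other mitochondrial and lipid genes give the setting of these changes. Of 10 mitochondrial genes outside the pathway, 10 had a log2 fold change below 0 at WL1 against Pre with a median of -0.28, beside 0.02 over all genes. Of these 2 passed, both lower (beside 4.69% of all genes), Cs (citrate synthase, -0.62, adjusted p = 0.00603) and Atp5a1 (-0.40, adjusted p = 0.0425). The share of counts from the mitochondrial genome was 3.15% to 3.57% at Pre, 1.86% to 2.03% at WL1 and 2.28% to 2.88% at WL2. Of 13 genes of fatty acid oxidation, 3 were lower at WL1 (beside 4.69% of all genes), among them Cpt2 (-0.71, adjusted p = 0.00695) and Acads (-0.56, adjusted p = 0.0207). Of 11 genes of fatty acid synthesis, 10 were lower at WL1 (beside 4.69%), with Fasn at -2.36 and Acss2 at -1.86 (adjusted p = 0.00135 and 0.000347). At WL2 against Pre 8 of the 11 were lower (beside 6.66%), with Fasn at -3.04 (adjusted p = 0.000156), while 1 was higher (beside 3.35%), Acacb at 0.81 (adjusted p = 0.00737). Of the breakdown genes, 0 of 10 were lower at WL2 than at Pre (beside 6.66% of all genes), and the difference between the lists was not tested. Cs, Cpt2, Fasn, Acss2 and Acacb kept these calls whichever 1 library was left out, Acads lost its call without Pre 1, WL1 1 or WL1 3 (-0.66 to -0.46), and Atp5a1 held only without Pre 3 or WL2 1 (-0.45 to -0.36).

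The tissue is a mixture, and in bulk RNA fewer adipocytes and less RNA per adipocyte cannot be told apart. The 10 adipocyte markers had log2 fold changes below 0 at WL1 in 10 of 10 cases, with a median of -0.49 and 4 lower calls (beside 4.69% of all genes), and included the diet-responsive genes Lep and Retn. The geometric mean of the adipocyte markers was at -0.62 from Pre on the log2 scale at WL1 and at -0.08 at WL2. At WL2 against Pre single markers ran from -2.03 to 1.61, with 1 higher (beside 3.35% of all genes) and 2 lower (beside 6.66%). Mean Lep went from 5430 CPM at Pre to 1328 CPM at WL2, and mean Cfd from 1316 to 4007 CPM. The value of -0.08 thus averages markers that moved in opposite directions. Macrophage markers moved the other way, from 1671 to 2810 CPM in sum at Pre to 3467 to 6976 CPM at WL1, with 9 of 10 above 0 and 2 called higher (beside 2.60% of all genes). Measured against the adipocyte markers, the mean of the 10 breakdown genes was 0.32 higher at WL1 than at Pre and 0.28 higher at WL2 than at Pre, and WL2 was at -0.03 from WL1. Scaling to these markers moved the median of all genes by 0.64 at WL1 against Pre, 0.08 at WL2 against Pre and -0.56 at WL2 against WL1, and values on this scale are to be read against those shifts. On this scale 9 of 10 genes were above Pre at WL1, led by Ppm1k at 0.86 and Dbt at 0.65, with Bcat2 at 0.11 and Mccc1 at 0.06, and Ivd was at -0.05. At WL2 Ppm1k was at 0.72 and Dbt at 0.55 from Pre. Ivd was the member with the largest difference of WL2 from WL1 on this scale, at 0.38.

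**Figure D5:**
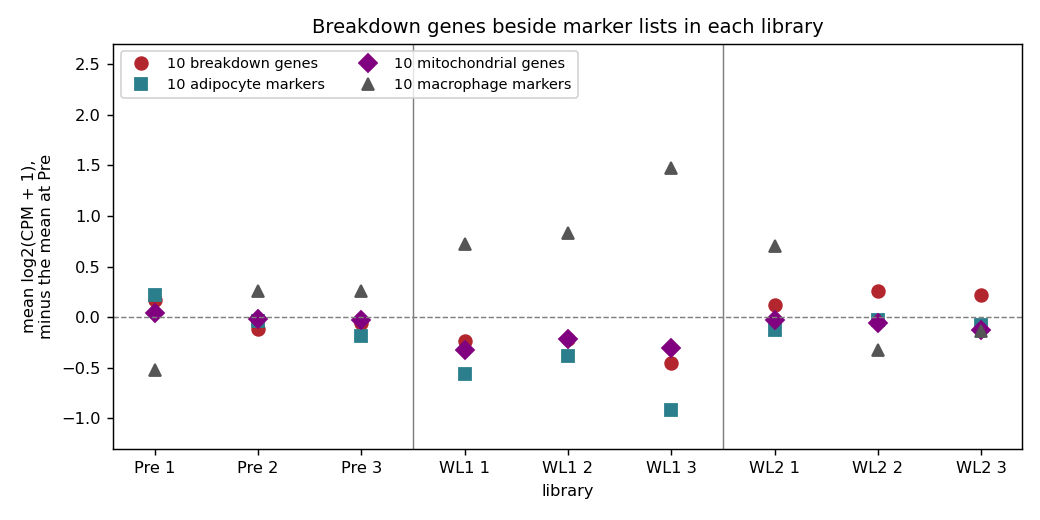
Mean log2(CPM + 1) of the 10 breakdown genes, 10 adipocyte markers, 10 mitochondrial genes and 10 macrophage markers in each library, each as the difference from its own mean at Pre (vertical axis), with libraries along the horizontal axis. In the 3 WL1 libraries the breakdown genes and the adipocyte markers lie below 0 and the macrophage markers above 0, and relative to the adipocyte markers the breakdown genes are 0.32 above Pre, where the median of all genes shifted by 0.64.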

How the data were processed

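RNA sequencing libraries of epididymal adipose tissue (3 each at Pre, WL1 and WL2) were grouped by the sample labels. The authors deposited raw counts per gene, not normalized, and a second table of FPKM per gene from the same libraries. The submitters' processing notes name CASAVA, HISAT, HISAT2 and TopHat2 and the builds GRCm38 and mm10. Counting program and strand setting: not given in the sources used here. Within a library the deposited FPKM were proportional to counts over gene length, with a total 0.995 to 1.12 times the sum of counts.

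A gene was tested if any library reached 0.5 CPM, which left 18510 of 56748 genes. The fit was a quasi-likelihood model of edgeR 4.0.16 (R 4.3.3) with TMM scaling, the phase as its only term and all 9 libraries in it. The threshold was 0.05 after Benjamini-Hochberg adjustment over every gene tested. Total counts of 16434450 to 22729072 set the depth. Log2 fold changes have SE and 95% intervals from the fit, and CPM are TMM-scaled. Alternatives used limma 3.58.1 on log2(FPKM + 1) and log2(FPKM + 0.1), DESeq2 1.42.0, other filters and size factors, a replicate block, only the phases compared, and each library left out. The 2 alternatives named for Pre 2 with WL2 1 and for adipocyte markers were chosen after seeing the data. The code was tested on simulated data.

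The 10 genes and all gene lists were chosen with earlier results of these data known. Besides the 10 genes, up to 4 genes per list that passed in at least 1 comparison were selected, with the largest changes, and Slc25a44, Klf15, Pdk4 and Bcat1 always. Of those selected, Cpt1a, Hadh, Pdk1, Scd2, Thrsp and Uqcrc2 are not described in the Results. Scd2 was at -3.29 on the log2 scale at WL2 against Pre, a larger change than that of Fasn at -3.04. Acacb (named after its values were seen), Ppara, Ppargc1a, marker genes and overlapping genes were named for context. Promoters came from RefSeq (GRCm38.p6). Protein sequences were not used here. Replicates differed by more than counting noise (chi-square per degree of freedom 8.84 to 46.8), so none was merged.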

Additional observations from a re-analysis of the deposited data

How the results depend on the processing

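Leaving out 1 library at a time gave 0 to 5 of the 10 genes called at WL1 against Pre, 0 to 1 at WL2 against Pre, 0 to 5 at WL2 against WL1 and 1 to 4 among the 3 phases, and 3 to 10, 1 to 4, 0 to 11 and 6 to 14 of the 26 further pathway genes. Over all genes tested, these omissions gave 512 to 1500, 743 to 1688, 37 to 1351 and 1062 to 2475 calls in the same order. Without WL2 2, calls at WL2 against WL1 over all genes dropped from 681 to 37. With DESeq2, which called more genes in general, 5 of the 10 genes were called at WL1 against Pre (beside 14.4% of all genes), 5 between WL1 and WL2 (beside 11.9%), and 17 further genes among the 3 phases (beside 24.2%). With no filter on low counts, 5 of the 10 genes were called at WL2 against WL1, beside 5.64%. Replicate numbers did not pair the libraries: deviations of libraries with the same number correlated at -0.28 to 0.11, over 0.1 in 1 of 9 pairs, and 3 of 18 correlated best with their own number. With the replicate number as a block, 0, 0 and 1 of the 10 genes were called at WL1 against Pre, WL2 against Pre and WL2 against WL1, and 5 further genes in the last. Of the 18510 genes tested, 844, 1399 and 330 were called in the same 3 comparisons. With Pre 2 and WL2 1 left out, 0 of the 10 genes were called at WL2 against Pre (beside 7.68%) and 5 at WL2 against WL1 (beside 10.3%). Scaled to adipocyte markers, 0 were called at WL2 against Pre (beside 4.09%), 0 at WL2 against WL1 (beside 30.9%) and 1 among the 3 phases (beside 45.8%). Of the further genes, 2 were higher at WL2 against Pre, and 1 was higher and 4 were lower at WL2 against WL1. That scaling moved the median of all genes by 0.64, 0.08 and -0.56, and the cause of these differences was not tested.

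The value of Dbt at WL1 against Pre, 0.00 and not called, turned to -0.0318 with 0.5 CPM in 3 libraries, -0.0316 with upper quartile factors, -0.0205 with RLE factors, -0.0206 with DESeq2 and -0.0231 with only the phases compared, and ranged from -0.21 to 0.17 over omitted libraries. At WL2 against Pre, where none of them was called, Bcat2 ranged from -0.0165 to 0.186, Bckdha from -0.175 to 0.0662, Bckdk from -0.142 to 0.0557 and Mccc1 from -0.0868 to 0.147 over omitted libraries. Of 783 other comparisons of single values with an alternative, omissions apart, 716 kept direction and side of the threshold, 53 lost a call, 9 gained one and 5 (those of Dbt) turned sign.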
